A study of Mus musculus with 18 samples.

Results

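The net change in gene expression over the first 48 h of exit from naive pluripotency was followed in WT mouse ESCs. Genes that went from at most 3 counts in every library to a clearly higher level, or the reverse, were singled out. The comparison used 6 of the 18 RNA-seq libraries of the study, 3 of WT ESCs (0 h) and 3 of WT cells at T48. WT cells are labelled E14 wt, and the study's methods give the line as E14TG2a, an established mouse ESC line. WT ESCs were held on gelatin in 2i+LIF, that is N2B27 medium with inhibitors of MEK and GSK3 and the cytokine LIF, and T48 cells were kept for 48 h in N2B27 without them. The other libraries were WT cells at T24 (24 h in N2B27) and iEZR_CA cells, in which doxycycline switches on a phosphomimetic ezrin, at the same 3 times. Doxycycline was given to iEZR_CA cells, starting about 16 h ahead of exit, and not to WT cells, so transgene, drug and line cannot be told apart. Each of the 6 groups had 3 libraries. The p-values of single genes measure only the spread between libraries within groups, pooled over all 18 libraries of WT and iEZR_CA cells. WT cells were 1 line, so the spread between independent WT lines was not measured.

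Naive ESCs correspond to the epiblast of the preimplantation embryo. LIF acts through STAT3, and inhibition of GSK3 stabilises beta-catenin, which relieves repression of naive genes by TCF7L1. Inhibition of MEK keeps ERK signalling low. When these inputs are withdrawn, ESCs lose the naive transcription factors and pass through a formative state like the early post-implantation epiblast, in which de novo DNA methyltransferases are high and cells become competent for germ layer formation.

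Between 18785967 and 27666556 reads were counted on genes in WT ESC libraries, and between 10940752 and 26943997 at T48, with WT T48 replicate 2 the shallowest. Within each group every pair of replicates differed by more than sampling noise. Spike-in RNA took 1.08% ± 0.0491 of the counts in ESCs (mean ± SD, n = 3) and 0.922% ± 0.0418 at T48. All genes of the mitochondrial genome, not its mRNAs alone, took 0.856% ± 0.0357 and 0.399% ± 0.0468. Neither pair of groups overlapped (two-sided exact permutation test, p = 0.1, the smallest that 3 libraries against 3 allow, and 0.17 after Benjamini-Hochberg adjustment over 5 library measures). Nanog, a naive transcription factor gene, had 23569, 23900.0 and 23788 normalized counts in the ESC libraries and 441, 423 and 369.9 at T48, so all 6 libraries were as labelled in this respect. Normalized counts are raw counts divided by the library's median-of-ratios size factor.

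Most of the transcriptome differed between the ESCs and T48. Of 18469 genes tested by edgeR's quasi-likelihood test, 6853 were higher at T48 (37.1%) and 6914 lower (37.4%), with an adjusted p-value under 0.05. Many calls were small changes, since the replicates were close, with a common biological coefficient of variation of 2.98%. Of the genes called, 2918 were higher and 2872 lower by more than 2-fold, 831 and 702 by more than 8-fold, and 266 and 237 by more than 32-fold. The median log2 fold change over all genes tested was 0.0058. Scaling to spike-in RNA moved this median to 0.27 and gave 7933 genes higher and 4027 lower. In bulk samples, fewer cells that express a gene and less RNA of it per cell cannot be told apart.

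**Figure D1:**
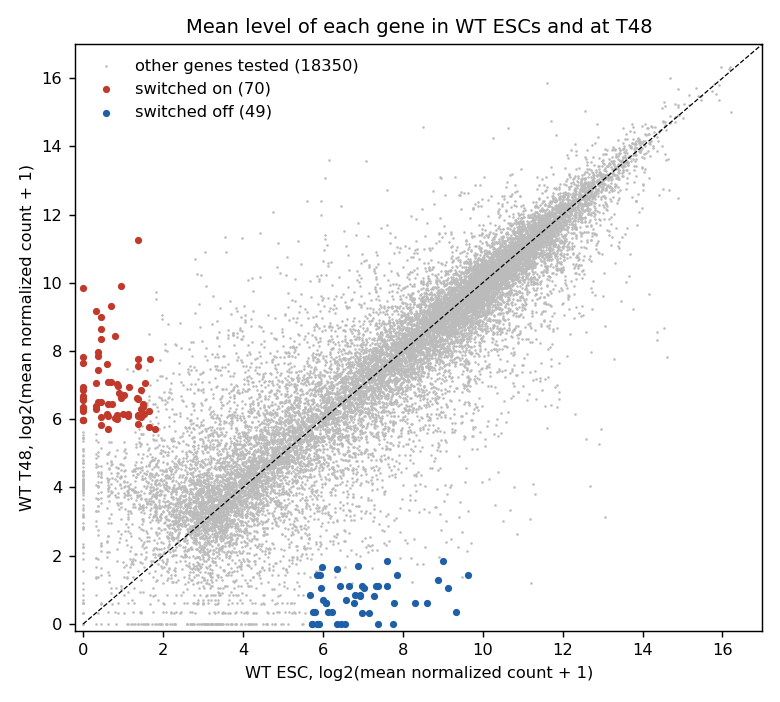
Mean normalized count of each gene tested in WT ESCs (x axis) and at WT T48 (y axis), both as log2(mean + 1), n = 3 libraries per mean. The 70 genes switched on (red) lie at the left edge, the 49 switched off (blue) at the bottom edge, and the dashed line marks equal levels.

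A gene was taken as switched on when it had at most 3 counts in each WT ESC library (the floor), more than 3 in each T48 library and a mean of at least 50 normalized counts at T48, and as switched off in the reverse case. By this rule 70 genes were switched on and 49 off. Since the levels themselves chose the genes, their values in WT ESCs and at T48 are a description with no test. Of the 70, 68 were protein coding and 14 had no count in any ESC library. Of the 49, 37 were protein coding and 10 had no count in any T48 library. Just inside the minimum stood Dll4, a Notch ligand gene, with a mean of 51.7 normalized counts at T48. Among the switched-off genes Gm47725 stood just inside, with a mean of 50.2 in ESCs, and Gm13889 just outside, with 46.2. Switched genes made up 68 of the 266 genes higher by more than 32-fold (25.6%, or 97.1% of the 70) and 49 of the 237 lower (20.7%, or 100% of the 49). They were a small share of the RNA: the switched-on genes held between 0.0646% and 0.065% of the gene counts in each T48 library.

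The 10 switched-on genes with a known name and the highest level at T48 are described first. Enpp2 codes for autotaxin, a secreted enzyme that makes lysophosphatidic acid. It had 2.25, 0.77 and 1.7 normalized counts in the ESC libraries and 2671, 2308 and 2328 at T48, from 5 raw counts in all against 7507. The ratio of normalized levels was 1666, with a 95% counting interval of 713 to 5131. By normalized counts it was the highest of the 70 genes at T48, while per length Car4 was higher (22.3 against 20.2 counts per kb of exon and library size, RPKM).

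Car4, a membrane-anchored carbonic anhydrase gene, had no count in any ESC library and 929, 895 and 914 normalized counts at T48. Against a floor of 3 counts over the ESC group it was at least 1031-fold higher. Chst1, the gene of a Golgi sulfotransferase, had 1.12, 0 and 0 normalized counts in ESCs and 381, 424 and 403 at T48, a ratio of 1339 (interval 239.9 to 52930, from 1 ESC count). In both genes every T48 library was far above every ESC library.

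Pde4b, a gene of a phosphodiesterase that degrades cAMP, had 2.25, 0 and 0 normalized counts in ESCs and 354, 325 and 364 at T48. Fut1, a gene of a fucosyltransferase that makes the H antigen, had 0, 0 and 0.85 in ESCs and 259, 258 and 233 at T48. Both were still near the floor at T24, with means of 2.25 and 1.44 normalized counts, so nearly all of the increase fell between T24 and T48.

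Zfp608, a zinc finger protein gene, had 1.12, 0.77 and 0.85 normalized counts in ESCs and 932, 998 and 953 at T48. Jakmip2, a gene of a coiled-coil protein, had 1.12, 0 and 0 in ESCs and 311, 331 and 345 at T48. Tmem54, a membrane protein gene, had 1.12, 0 and 0 against 509, 509 and 519. The ESC and T48 libraries of these genes were far apart, and the T48 libraries lay close together.

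Fam131b had 1.12, 0.77 and 0 normalized counts in ESCs and 621, 652 and 651 at T48, and Ccdc194 had 0, 0.77 and 0 in ESCs and 566, 637 and 511 at T48. At T24 they differed, with means of 19 and 199 normalized counts, or 2.97% and 34.9% of the T48 level.

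**Figure D2:**
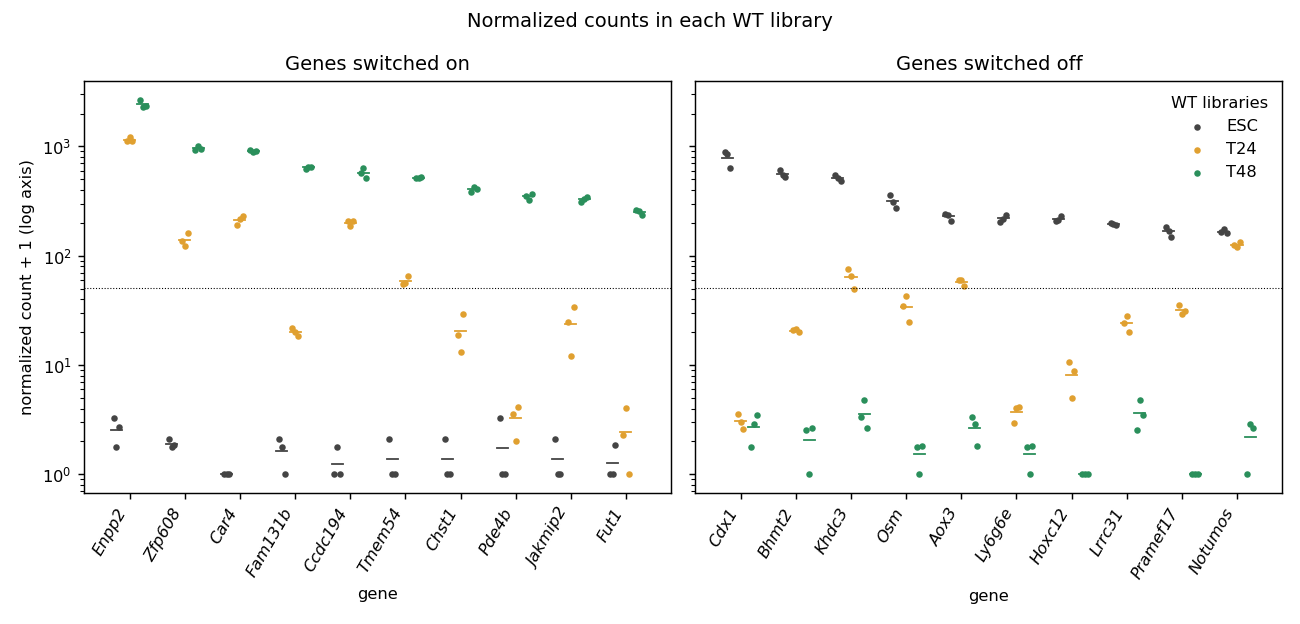
Normalized count + 1 (log axis) of the 10 named genes of each kind in every WT library, with ESC, T24 and T48 in different colours, dots for libraries, short bars for group means and a dotted line at the minimum of 50. At T24 Enpp2 is far above its ESC level while Pde4b and Fut1 are near theirs, and among the switched-off genes Notumos is still near its ESC level while Cdx1 is at its T48 level.

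The other switched-on genes named here were chosen after their values were seen. Several are known from neurons and neural progenitors. Dcx, which codes for the microtubule protein doublecortin of migrating neurons, had 0, 0 and 0 normalized counts in ESCs and 49.5, 68.8 and 68.8 at T48. Reln, the gene of the secreted guidance protein reelin, had 1.12, 1.53 and 2.55 in ESCs and 92.7, 122 and 130.1 at T48. Gpm6a, a neuronal membrane glycoprotein gene, had no count in ESCs and 88.9, 99.4 and 94.9 at T48. The levels were modest beside that of Enpp2. Slc1a2, a glutamate transporter gene, had 98.2, 166 and 139 at T48, and Cnr1, a cannabinoid receptor gene, had 61, 70.7 and 71.2.

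Transcription factors and adhesion molecules were among them as well. Foxb1 and Foxd4, forkhead factor genes, had 54.1, 68.8 and 62.2 and 49.5, 86 and 63 normalized counts at T48. Rxrg, a retinoid X receptor gene, had 194, 153 and 171. Cdh10, a classical cadherin gene, had 224, 208 and 219. In ESCs none of these passed 3 counts in a library. The atypical cadherin genes Fat3 and Fat4 had 109.7, 139.6 and 139 and 92, 120.5 and 156 at T48, and the Fat4 libraries were the more spread out. Il33, a cytokine gene, had 78.8, 101 and 115, and Arg1, the arginase 1 gene, had 103, 172 and 135.

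Of the 10 named switched-off genes, Cdx1 had the highest level in ESCs. It codes for a homeobox factor of the posterior body axis and is a target of WNT signalling. It had 888, 855 and 628 normalized counts in the ESC libraries and 0.77, 1.91 and 2.46 at T48, a ratio of 477 (interval 204 to 1470, from 5 counts at T48). ESC replicate 3 was the lowest of its group and still far above T48.

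Hoxc12, a posterior homeobox gene, had 207, 210.4 and 229 normalized counts in ESCs and no count at T48, and was thus at least 219-fold lower against the floor of 3 counts over the T48 group. Hoxd9 and Hoxb13 were also switched off, and the Hox genes were therefore summed as a family, after their values were seen. The 24 genes of paralog groups 6 to 13 in the table, the more posterior ones, these 3 included, together had 1532, 1506 and 1556 normalized counts in the ESC libraries and 116, 132 and 128 at T48. The 15 genes of groups 1 to 5 had 520.4, 466 and 412 in ESCs and 294, 349.9 and 439 at T48, a smaller gap. These sums were not tested. Hoxc13 had 536, 539 and 562 in ESCs and 10.8, 19.1 and 9 at T48, and Hoxd13, also posterior, had 107, 112 and 118 and 65.7, 78.4 and 70.4, whereas Hoxb1, an anterior gene, had no count in ESCs and 43.3, 32.5 and 60.6 at T48. Genes of a Hox cluster lie close together, and reads that the counting could not assign to 1 gene may be missing.

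Bhmt2 codes for an enzyme that methylates homocysteine to methionine. It had 605, 546 and 529 normalized counts in ESCs and 1.55, 0 and 1.64 at T48, a ratio of 422 (interval 165 to 1551). Its neighbours on chromosome 13 act on betaine and dimethylglycine in the same pathway, and were looked up after its values were seen. Bhmt, the betaine-homocysteine methyltransferase gene, had 778, 713 and 661 in ESCs and 3.09, 0 and 1.64 at T48. Dmgdh, the dimethylglycine dehydrogenase gene, fell from 1639.9 ± 106 to 9.22 ± 2.65 (a log2 fold change of -7.42 ± 0.11 SE, adjusted p = 1.1e-58 by edgeR). The annotated spans of Bhmt2 and Dmgdh are 130 bases apart, on opposite strands, and those of Bhmt and Bhmt2 17758 bases.

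Khdc3, a gene of the subcortical maternal complex of oocytes and early embryos, had 544, 515 and 482 normalized counts in ESCs and 2.32, 3.82 and 1.64 at T48. Osm codes for oncostatin M, a cytokine of the LIF family, and had 359, 311 and 272 in ESCs and 0.77, 0 and 0.82 at T48. Aox3, an aldehyde oxidase gene, had 242, 236 and 209 against 2.32, 1.91 and 0.82. In all of these the loss was under way by T24, when 12.2%, 10.5% and 24.6% of the ESC level were left.

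Ly6g6e, a gene of the Ly6 family, had 205, 215 and 237 normalized counts in ESCs and 0.77, 0 and 0.82 at T48, and Lrrc31, a leucine-rich repeat gene, had 200.1, 195 and 189 against 1.55, 3.82 and 2.46. Pramef17 had 181, 169 and 148 in ESCs and no count at T48, but belongs to a family of similar genes, so its counts are uncertain. Notumos is annotated antisense to Notum, the gene of a secreted inhibitor of WNT, with 2019 bases of overlap. It had 163, 174 and 159 in ESCs and 0, 1.91 and 1.64 at T48, and Notum fell from 1266 ± 53.6 to 10.2 ± 4.5. Whether the counting used strand is not given in the sources used here, so reads of this pair cannot be told apart. Other genes switched off, named after their values were seen, included S1pr1, a receptor gene for sphingosine 1-phosphate (192, 138 and 131 in ESCs), and Edn1, the gene of endothelin 1 (57.3, 78.8 and 69).

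Promoters of 3 of these genes are shown, which cover both directions and differ in CpG content. Each is RefSeq sequence of GRCm38.p6 from 250 bases before to 50 after the RefSeq start, which can differ from that of the gene as counted, 5′ to 3′ on the gene's strand, with every CpG in capitals. The window of Bhmt2 (chr13:93674253-93674552, minus strand) holds 26 CpGs and reaches over the short gap to Dmgdh. The windows of Car4 (chr11:84957504-84957803, plus strand) and Fam131b (chr6:42324591-42324890, minus strand) hold 15 and 34 CpGs. That of Khdc3, a switched-off gene picked in the same way (chr9:73102148-73102447, plus strand), holds 0 CpGs and is not shown. Promoters could be matched for 46 of the 70 switched-on genes (65.7%) and 24 of the 49 switched-off genes (49%), under the 80% needed, so a comparison of CpG content between the groups is void and was not made.
Bhmt2: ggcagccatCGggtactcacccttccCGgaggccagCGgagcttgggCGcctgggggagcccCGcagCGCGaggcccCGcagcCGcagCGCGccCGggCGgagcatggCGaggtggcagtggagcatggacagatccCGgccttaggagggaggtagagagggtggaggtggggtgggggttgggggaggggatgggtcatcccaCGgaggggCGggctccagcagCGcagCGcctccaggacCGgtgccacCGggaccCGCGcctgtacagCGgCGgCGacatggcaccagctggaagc
Car4: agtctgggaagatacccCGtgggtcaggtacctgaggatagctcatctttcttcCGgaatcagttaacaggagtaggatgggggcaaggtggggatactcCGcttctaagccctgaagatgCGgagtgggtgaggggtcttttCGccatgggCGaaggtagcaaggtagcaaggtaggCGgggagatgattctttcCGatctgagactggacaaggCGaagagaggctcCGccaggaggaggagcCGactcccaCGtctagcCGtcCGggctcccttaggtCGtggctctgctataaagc
Fam131b: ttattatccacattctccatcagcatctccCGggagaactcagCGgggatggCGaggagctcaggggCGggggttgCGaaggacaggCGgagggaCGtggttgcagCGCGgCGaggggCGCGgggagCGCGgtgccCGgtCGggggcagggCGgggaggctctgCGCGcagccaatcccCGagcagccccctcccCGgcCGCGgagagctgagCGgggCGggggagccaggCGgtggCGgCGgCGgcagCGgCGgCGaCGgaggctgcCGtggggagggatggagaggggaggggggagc

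The T24 libraries played no part in the choice of these genes. At T24, 62 of the 70 switched-on genes were above the floor, 46 of them in every library, with a median level of 11.3% of that at T48. For 34 genes the T24 level was under 10% of the T48 level, and for 5 it was over 50%. Enpp2 had 1117, 1208 and 1121 normalized counts at T24, already 47.2% of its T48 level. Of the 49 switched-off genes, 16 were at the floor by T24, and a median of 6.35% of the ESC level was left. Cdx1 was down to 2.58, 2.02 and 1.58 at T24, whereas Notumos was still at 75.3% of its ESC level.

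The iEZR_CA libraries did not choose the genes either, and served as a second set in which to test them. The study's methods state that iEZR_CA cells were made from E14 ESCs, so they are related to WT cells. Between ESCs and T48 of iEZR_CA cells, 68 of the 70 switched-on genes were higher and 0 lower, where 35.2% of all genes tested were higher. Of the 70, 52 were at the floor in iEZR_CA ESCs, so these could rise or stay there but hardly be called lower. The 35.2% also covers genes free to move either way and is not a like share. All of the 49 switched-off genes were lower, where 35.0% of all genes were. The 49 were chosen for a high level in WT ESCs, and 44 of them also had a mean of at least 50 normalized counts in iEZR_CA ESCs. The 35.0% covers genes of any level and is thus not a like share either. The exceptions among the switched-on genes were Snph and Moxd1 (adjusted p = 0.089 and 0.17 by edgeR), with 5.02, 11.5 and 2.4 and 4.18, 7.69 and 6 normalized counts in the iEZR_CA T48 libraries.

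All of the 70 and the 49 met the rule in WT cells because it chose them there. The counts in iEZR_CA cells could therefore only be equal or lower, and no difference between the lines is read from them. Of the 70, 14 met the same rule for switching on in iEZR_CA cells, and of the 49, 13 met that for switching off. In iEZR_CA ESCs 52 of the 70 were at the floor, and at T48 18 had a mean of at least 50 normalized counts. The mean at T48 was below that of WT cells in 65 of the 70, with a median of 29.1% of the WT level, which is a description because the genes were chosen for a high level in WT T48 cells. Of the switched-off genes, 18 of 49 were at the floor in iEZR_CA T48 cells, and a median of 2.56% of the level of iEZR_CA ESCs was left. In iEZR_CA ESCs the mean was above that of WT ESCs in 35 of the 49 and below in 14, with a median of 151% of it. The floor is a fixed count and takes no account of this starting level.

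Single genes differed widely in this respect. Pde4b had 12.6, 12.3 and 7.19 normalized counts in the iEZR_CA T48 libraries and Fut1 9.2, 4.62 and 6, against WT means of 348 and 250.1. Ccdc194, by contrast, had 732, 747 and 736, above each of the WT T48 libraries. Aox3 was still at 56.9, 50.8 and 81.5 in iEZR_CA T48 cells.

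**Figure D3:**
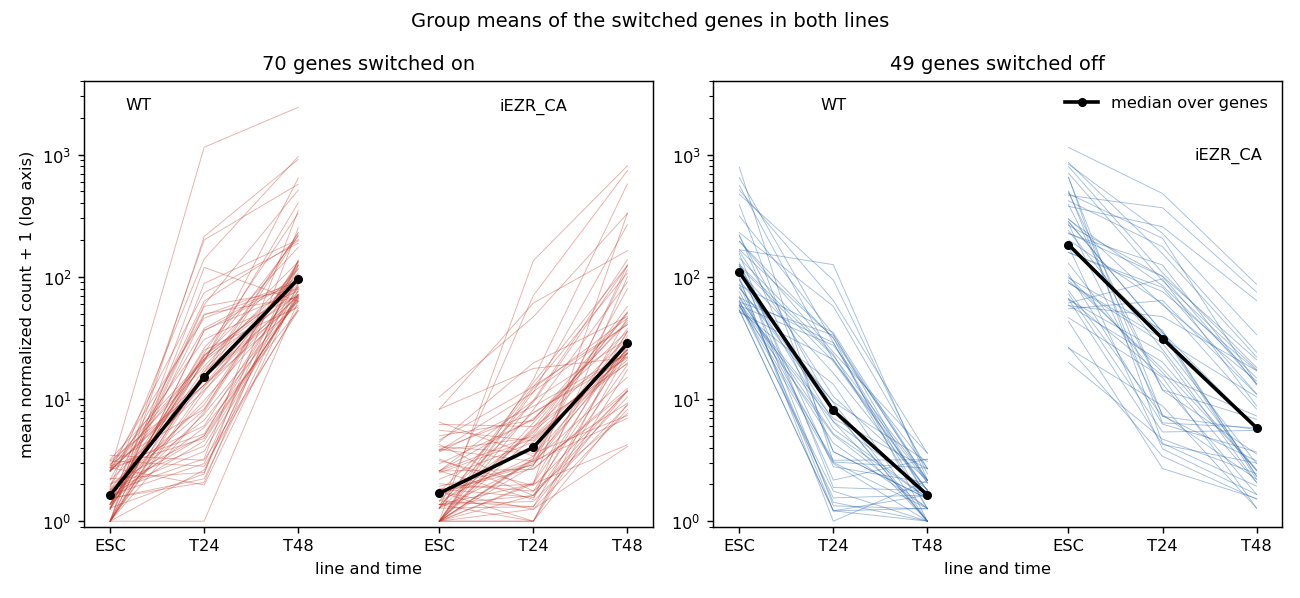
Mean normalized count + 1 (log axis, n = 3 libraries) of each switched gene at ESC, T24 and T48 in WT and iEZR_CA cells, with 1 thin line per gene and the median over genes in black. The median of the 70 switched-on genes is lower at iEZR_CA T48 than at WT T48, and that of the 49 switched-off genes is higher. The rule chose the genes by their WT levels, which favours both directions, so no difference between the lines is read from them.

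The switched genes also differed in length, which the rule did not use. The median genomic span was 30.5 kb for the switched-on genes, 4.64 kb for the switched-off genes and 16.6 kb over all genes tested, and among protein-coding genes alone it was 32, 6.69 and 24.1 kb. Of the 70 switched-on genes, 18 spanned more than 100 kb (25.7%, against 11.1% of all genes tested), and 3 of the 49 switched-off genes did. Reads on mRNA follow exon length, for which the medians were 4013, 2139 and 3558 bases. Switched genes of the same direction lay within 500 kb of each other in 4 cases, among them Gbp2b and Gbp2, guanylate-binding protein genes 1.42 kb apart.

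Other genes changed strongly from a measurable level. Among genes with a mean of at least 200 normalized counts in the higher group and more than 3 counts in every library of both groups, the 10 largest rises were Cxcl12, Dll1, Esrp1, Btbd17, Pou3f1, Vrtn, Epha1, Dusp4, Jph4 and Flnc, with log2 fold changes from 8.02 down to 7.04. Cxcl12, a chemokine gene, had 8.99, 7.65 and 5.11 normalized counts in ESCs and 1913, 1922 and 1854 at T48 (a log2 fold change of 8.02 ± 0.11 SE, adjusted p = 2.9e-60 by edgeR). Dll1, a Notch ligand gene, had 4.5, 8.42 and 5.11 against 1563, 1675 and 1718. Esrp1, a gene of a splicing factor of epithelial cells, rose from 10.8 ± 3.45 to 2612 ± 130.3. The groups of these genes were far apart.

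Pou3f1, a POU factor gene of the formative epiblast also called Oct6, had 85.4, 69.6 and 56.2 normalized counts in ESCs and 12884, 11518 and 12661 at T48 (a log2 fold change of 7.47 ± 0.16 SE, adjusted p = 1.0e-14 by edgeR). Dusp4, the gene of a phosphatase that acts on ERK, rose from 25.9 ± 6.05 to 4336 ± 95.3. Flnc, the gene of the actin crosslinker filamin C, rose from 64.9 ± 6.89 to 8562 ± 293. The timing differed between them: the T24 mean of Flnc was 366, far nearer to ESCs than to T48, while that of Dusp4 was 2399.

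The 10 largest falls were Aqp3, Mras, Tbx3, Trpm1, Dmgdh, Klf4, Inhbb, Bcl3, Calcoco2 and Tcl1, with log2 fold changes from -8.85 to -6.93. Aqp3, a gene of a channel for water and glycerol, had 6729, 6523 and 6399 normalized counts in ESCs and 12.4, 21 and 13.1 at T48 (a log2 fold change of -8.85 ± 0.079 SE, adjusted p = 5.9e-58 by edgeR). Mras, a GTPase gene of the RAS family, had 2303, 2326 and 2402 against 6.96, 9.56 and 5.73. Tbx3, a naive T-box factor gene, fell from 7749 ± 127 to 37.4 ± 11.6. No ESC and T48 libraries of these genes overlapped. Inhbb, the inhibin beta B gene, fell both before and after T24, with 618, 715 and 805 in ESCs, 289, 332 and 293 at T24 and 5.41, 7.65 and 3.27 at T48.

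On the RPKM scale, which weighs genes by abundance, the 5 largest rises were those of Dnmt3b, Pim2, Ldha, Pkm and Slc2a1. Dnmt3b, a de novo DNA methyltransferase gene, rose from 29.2 to 561 on this scale and from 3135 ± 46.6 to 59626 ± 2644 normalized counts. Pim2, a serine/threonine kinase gene, rose from 6.21 to 418 RPKM. Ldha and Pkm, genes of glycolytic enzymes, rose from 86.9 to 484 and from 252 to 628 on that scale, and Slc2a1, the gene of the glucose transporter GLUT1, from 45.1 to 377. Each of these genes passed, with log2 fold changes of 4.23, 6.04, 2.45, 1.29 and 3.03.

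The 5 largest falls on the same scale were those of mt-Co1, Dppa5a, mt-Nd1, mt-Cytb and Nanog. Dppa5a, a gene of an RNA-binding protein of pluripotent cells, fell from 1660.3 to 469.6 RPKM, and Nanog from 503 to 8.81. The mitochondrial genes mt-Co1, mt-Nd1 and mt-Cytb, which code for respiratory chain subunits, fell from 2340.3 to 1021, from 1261 to 635 and from 1014 to 518. Of the 13 mitochondrial mRNAs, 12 were lower, 0 higher and 1, mt-Atp8, did not pass, and under spike-in scaling mt-Nd3 did not pass either (log2 fold change -0.034).

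Gene lists were then counted, each read against the 37.1% of genes higher and 37.4% lower. Of 16 naive pluripotency genes, 15 were lower and 1 higher at T48, with a median log2 fold change of -4.94. Prdm14, a gene of a repressor of FGF signalling in naive cells, had the largest fall, from 1908, 1887 and 1746 to 6.18, 3.82 and 5.73 normalized counts. Tfcp2l1, a target of STAT3, fell from 25021 ± 1323 to 227 ± 25.1, and Klf4 from 8016 ± 339 to 51.5 ± 3.95. Gbx2 was the exception, with 456, 372 and 385 in ESCs and 1882, 2126 and 2217 at T48 (a log2 fold change of 2.35 ± 0.064 SE, adjusted p = 1.8e-27 by edgeR). None of the 16 met the rule for switching off.

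Of 16 formative and early post-implantation genes, 15 were higher and 1 lower, with a median of 3.84. Fgf5, an FGF ligand gene of the epiblast, rose from 6.74, 9.18 and 2.55 normalized counts to 1364, 1197 and 1114 (log2 fold change 7.58), and Lef1, a gene of a nuclear partner of beta-catenin, from 28.5 ± 3.9 to 2312 ± 11.2. Otx2, a homeobox factor gene, had 243 ± 15.6 in ESCs, 4726 ± 90.2 at T24 and 2083 ± 124 at T48, so its net rise was smaller than its difference at T24. Tead2 was lower by a log2 fold change of -0.18, which became 0.083 with spike-in scaling. The 3 general pluripotency genes were lower. Sox2 fell from 11512 ± 280.5 to 2578 ± 65.9, and Sall4 and Pou5f1 had log2 fold changes of -0.50 and -0.32, neither of which passed with spike-in scaling.

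Of 9 genes of the LIF and STAT3 pathway, 8 were lower, 0 higher and 1, Cish, did not pass (log2 fold change 0.056, adjusted p = 0.84 by edgeR). Stat3 itself fell from 3385 ± 112 to 293 ± 1.17 normalized counts, and Socs3, the gene of a feedback inhibitor, from 2205 ± 188 to 93.6 ± 10.4. Of 12 tested targets of WNT and beta-catenin, 7 were lower, 4 higher and 1 did not pass. Axin2, a negative feedback gene, fell from 1359, 1192 and 1016 to 240.3, 294 and 251, and Sp5 from 568, 494 and 371 to 6.18, 0 and 2.46, while Lef1 rose. Axin2, Sp5 and Cdx1 were each lowest in ESC replicate 3 among the ESC libraries. Tcf7 was higher by 0.12 and lost the call without WT T48 replicate 1 (log2 fold change 0.085, adjusted p = 0.075 by edgeR).

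Of 12 MAPK/ERK targets, 6 were higher, 5 lower and 1 did not pass, with a median of -0.15. Dusp4, Egr1, Spry4 and Dusp6 rose by log2 fold changes of 7.32, 4.84, 4.25 and 3.53. Epha4 and Epha2, ephrin receptor genes, had log2 fold changes of -3.17 and -2.69. Ccnd1, the cyclin D1 gene, was higher by 0.065 (adjusted p = 0.036 by edgeR) and lost the call without WT ESC replicate 1 or 3 or WT T48 replicate 1 or 2 (adjusted p = 0.13, 0.13, 0.074 and 0.065). With spike-in scaling 3 genes of the list were lower.

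Of 8 writers and erasers of DNA methylation, 4 were higher, 3 lower and 1 did not pass. Dnmt3a and Dnmt3l, the other de novo components, rose by log2 fold changes of 3.96 and 3.48, and Dnmt3l was highest at T24 (21425 ± 332 normalized counts, against 529 ± 62.9 in ESCs and 6051 ± 314 at T48). Tet2, a gene of an enzyme that oxidises 5-methylcytosine, fell from 5403 ± 363 to 554 ± 63.3, and Tet3 rose by a log2 fold change of 1.67. Dnmt1 was lower by -0.21, which became 0.047 with spike-in scaling.

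Of 15 germline genes known to be held silent by DNA methylation, 10 were higher, 4 lower and 1 did not pass. Mael, a gene of the piRNA pathway, had 57.3, 58.9 and 61.3 normalized counts in ESCs and 1151, 1124 and 1045 at T48, and Dazl, a gene of an RNA-binding protein, fell from 2819 ± 92 to 539 ± 12.7. Stk31 was lower by a log2 fold change of -0.16, which became 0.11 with spike-in scaling. It lost the call without WT ESC replicate 1 or 3 or WT T48 replicate 2 or 3 (adjusted p = 0.058, 0.23, 0.062 and 0.31 by edgeR).

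**Figure D4:**
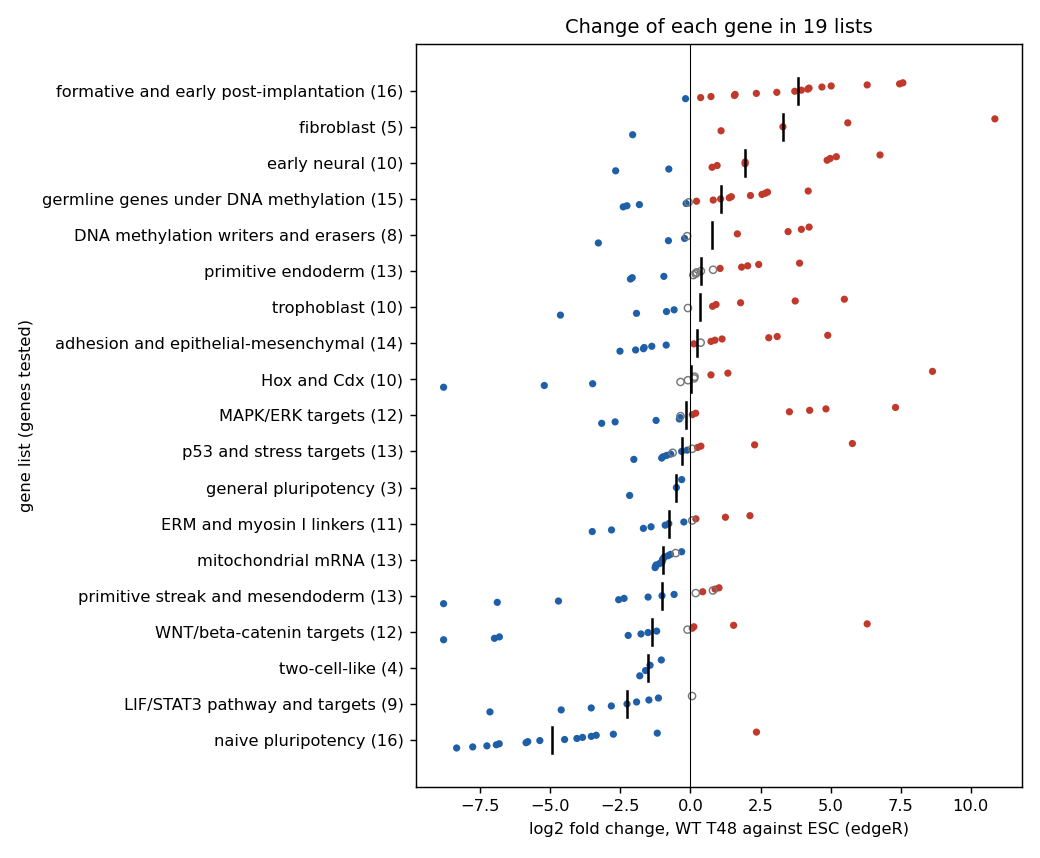
Log2 fold change of WT T48 against ESC for each tested gene of 19 lists, with list medians as black bars. Filled dots have an adjusted p under 0.05 (red higher, blue lower) and open dots do not, and the position of genes with no count in ESCs, such as Dcn, depends on the prior count.

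Markers of lineages were mixed. Of 10 tested early neural genes, 8 were higher and 2 lower, and the sum over the 15 genes of the list was between 3275 and 3369 normalized counts in ESC libraries and between 5890 and 6046 at T48. Sox11, a gene of neural progenitors, rose from 65.7 ± 6.18 to 2480.3 ± 85.2, and Sox1 by a log2 fold change of 1.95. Olig2 and Neurog2, of committed neural cells, had means of 1.43 and 1.43 at T48. Of 13 tested genes of the primitive streak and mesendoderm, 3 were higher, 8 lower and 2 did not pass. T, the brachyury gene, had 22.5, 19.1 and 15.3 in ESCs and 7.73, 1.91 and 7.37 at T48, and Nodal, a TGF-beta ligand gene, fell from 2322 ± 90.7 to 455 ± 8.39. Fgf8 lost its call without WT T48 replicate 1 (log2 fold change 0.53 against 1.02, adjusted p = 0.3 by edgeR). With DESeq2 neither Fgf8 nor Wnt3, both called higher, passed (adjusted p = 0.098 and 0.064), and with spike-in scaling Eomes, called lower, did not (0.1 by edgeR).

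Markers of other cell types moved as follows. Of 13 primitive endoderm genes, 5 were higher, 3 lower and 5 did not pass, with a summed level of 3193 to 3325 normalized counts in ESCs and 6438 to 6954 at T48, of which Lamb1, a laminin gene, made up 4517, 4717 and 4939.8. Gata6, a defining factor, was at 31.5, 29.8 and 35.8 in ESCs and 34.8, 26.8 and 39.3 at T48. Sox17 was at 23.6, 26.8 and 25.5 and 13.1, 21 and 9.82, and lost its call without WT T48 replicate 3 (adjusted p = 0.066 by edgeR) and with spike-in scaling. Of 10 tested trophoblast genes, 5 were higher, 4 lower and 1 did not pass. Their sum was 3243 to 3328 in ESCs and 1017 to 1089 at T48, most of it Tfap2c in ESCs, while Elf5 had means of 2.11 and 1.41. Krt7 lost its call without WT T48 replicate 1 (adjusted p = 0.099 by edgeR), and with spike-in scaling 2 genes of the list were lower.

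Of 5 tested fibroblast genes, 4 were higher and 1 lower. Dcn, the gene of the proteoglycan decorin, is among the switched-on genes, with no count in ESCs and 222, 243 and 215 normalized counts at T48, and Col1a2, a collagen gene, had 6.74, 0 and 5.96 in ESCs and 170.0, 219.9 and 211 at T48. Postn had no count in any of the 6 libraries, and Lum had means of 0.539 and 0.258. The summed level of the list was 197 to 247 in ESCs and 625 to 690 at T48. Of 4 tested genes of the 2-cell-like state, 4 were lower, and the sum of the list was 114 to 137 in ESCs and 36.3 to 54.8 at T48. Zscan4 genes are near-identical copies, so their counts are uncertain, and Zscan4f lost its call without WT ESC replicate 2 or WT T48 replicate 2 or 3 (adjusted p = 0.073, 0.11 and 0.13 by edgeR). The part of such cells in the results was not tested.

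Of 11 genes of ERM proteins and class I myosins, which link the membrane to actin, 3 were higher, 7 lower and 1 did not pass. Ezr, the ezrin gene, had 12017, 11805 and 11467 normalized counts in WT ESCs and 10095, 10508 and 9683 at T48 (log2 fold change -0.24, which became 0.021 with spike-in scaling). Myo1a fell from 291 ± 9.16 to 26.9 ± 5.61 and Myo1f from 804 ± 49.4 to 113 ± 12.4, whereas Myo1d rose by a log2 fold change of 1.25. Of 14 genes of adhesion and epithelial-mesenchymal change, 7 were higher, 6 lower and 1 did not pass. Epcam, an epithelial adhesion gene, rose from 734 ± 53.3 to 6328 ± 287, and Zeb2, a zinc finger repressor gene, by a log2 fold change of 4.90. Fn1 (fibronectin), Vim (vimentin) and Cdh1 (E-cadherin) had log2 fold changes of -1.96, -1.68 and 0.12.

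Of 13 p53 and stress targets, 4 were higher, 7 lower and 2 did not pass. Pmaip1, the gene of the apoptosis activator NOXA, rose from 85.9 ± 10.4 to 4854 ± 133 normalized counts, and Cdkn1a, the gene of the cell cycle inhibitor p21, fell from 5051 ± 47.7 to 1252 ± 23.2. Bax and Ccng1 were lower by log2 fold changes of -0.32 and -0.12, which became -0.049 and 0.14 with spike-in scaling. Of the list of anterior Hox and Cdx genes, 10 of 13 were tested, of which 3 were higher, 3 lower and 4 did not pass, and Hoxa3 lost its call without WT T48 replicate 3 (adjusted p = 0.089 by edgeR).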

How the data were processed

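PolyA RNA was sequenced as paired-end reads. The authors trimmed reads with TrimGalore 0.6.5, aligned them with GSNAP to mm10/GRCm38, counted them per gene with HTSeq on Ensembl release 81, and deposited 1 table of raw counts for all 18 libraries. The table holds 53801 genes, 92 spike-ins and 5 HTSeq summary rows. The last took 21.3% to 23.4% of the counts in the 6 libraries, and neither they nor spike-ins entered gene library sizes.

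Genes were filtered with filterByExpr, scaled by TMM and fitted with edgeR 4.0.16 (robust quasi-likelihood test, 6 groups, 18 libraries, 12 residual degrees of freedom, R 4.3.3), with Benjamini-Hochberg adjustment over 18469 genes and a threshold of 0.05. The fit was tested on simulated data. Normalized counts use DESeq2 1.42.0 size factors. Counting intervals (95%) and the floor of 3 counts cover counting error only. Samples were grouped by their labels, and replicate numbers were given in accession order and only name libraries. Genes were named as the 10 highest switched genes each way, the 10 largest changes each way with more than 3 counts in every library and a mean of at least 200, the 5 largest changes each way in RPKM, gene lists, and genes of opposite sign in iEZR_CA cells; predicted genes were passed over. Members and lists were chosen with earlier results of these data known. Alternatives were DESeq2, other scalings, no filter, WT libraries alone, other floors and minimums, and leaving out each library.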

Additional observations from a re-analysis of the deposited data

Results flagged for a closer look

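Of 234 genes named by the rule and tested, 162 passed an interaction test of whether the change from ESC to T48 differed between WT and iEZR_CA cells (edgeR's quasi-likelihood test, adjusted p under 0.05), or 69.2%, against 45.8% of all 18469 genes tested. The difference was over 1 on the log2 scale in 97 of them (41.5%, against 13.3% of all genes). Many of these genes were named for their large change in WT cells, so nothing is read from these shares. In 18 of the 162 the change passed in both lines with opposite sign (7.69% of the 234, against 4.90% of all genes), and they are given here as the log2 fold change of iEZR_CA minus that of WT cells, with no explanation. Among genes higher at T48 in WT and lower in iEZR_CA cells, the difference was largest for Dab2 by -4.06 (WT 2.04, iEZR_CA -2.02), Atf3 by -3.63 (WT 2.29, iEZR_CA -1.34), Krt8 by -2.29 (WT 1.79, iEZR_CA -0.50) and Tex101 by -2.24 (WT 1.46, iEZR_CA -0.78). The log2 difference for Brdt was -1.99 (WT 0.81, iEZR_CA -1.18), and the 2 lines differed in the same direction for Nes by -1.88 (WT 0.77, iEZR_CA -1.10), Krt7 by -1.37 (WT 0.79, iEZR_CA -0.58) and Ddit3 by -0.78 (WT 0.37, iEZR_CA -0.41). The log2 difference for Cdh1 was -0.63 (WT 0.12, iEZR_CA -0.51), and the 2 lines differed in the same direction for Sesn2 by -0.36 (WT 0.25, iEZR_CA -0.11), Ccnd1 by -0.36 (WT 0.065, iEZR_CA -0.29) and Tcf7 by -0.27 (WT 0.12, iEZR_CA -0.15). Among genes lower in WT and higher in iEZR_CA cells, the lines differed for Tead2 by 0.25 (WT -0.18, iEZR_CA 0.078), Stk31 by 0.30 (WT -0.16, iEZR_CA 0.14) and Bax by 0.53 (WT -0.32, iEZR_CA 0.22), and for Gata3 by 1.30 (WT -0.86, iEZR_CA 0.44), Eomes by 1.71 (WT -0.59, iEZR_CA 1.12) and Lefty2 by 5.07 (WT -2.56, iEZR_CA 2.50). Tead2 and Stk31, lower in WT cells, turned direction there with spike-in scaling (0.083 and 0.11). Eomes, Gata3 and Bax kept their direction there and lost the WT call (log2 fold change -0.31, -0.58 and -0.049, adjusted p = 0.1, 0.074 and 0.75 by edgeR). Stk31, Ccnd1, Tcf7 and Krt7 lost their WT call when single libraries were left out, and Stk31 and Krt7 with DESeq2. No group had the 4 samples needed to look for a sample far from the others.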

How the results depend on the processing

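The counts of genes higher and lower at T48 stayed within 1.5 times their value with DESeq2 (6771 and 6448), with DESeq2 size factors in edgeR (6991 and 6782), with no low-count filter (7143 and 7282) and with the 6 WT libraries alone (6503 and 6629). With spike-in library sizes 7933 genes were higher and 4027 lower. There, log2 fold changes turned to 0.083 for Tead2, 0.11 for Stk31, 0.047 for Dnmt1, 0.021 for Ezr and 0.14 for Ccng1, none past the threshold, and the cause was not tested. With DESeq2 7 of the 234 named genes lost their call, Wnt3, Fgf8, Sox17, Krt7, Zscan4f, Rnf43 and Stk31 (adjusted p from 0.058 to 0.19). Counts of switched genes followed the thresholds that define them. With no count allowed in the empty libraries 14 genes were switched on and 10 off, with a floor of 10 counts 200 and 137, and with a floor of 0.1 CPM 45 and 37. With a minimum mean of 20 the counts were 172 and 112, and with 200 they were 15 and 10. Leaving out 1 library at a time gave 6563 to 6894 genes higher and 6654 to 6908 lower, 71 to 94 switched on and 48 to 67 off. No paired analysis was possible because the labels give no replicate numbers, and the numbers used here only name libraries in accession order. Without WT T48 replicate 2, the shallowest library, 73 genes were switched on and 51 off.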
